A study of Caenorhabditis elegans with 44 samples.

Results

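The subject is a set of 39 genes that lie opposite microRNAs (miRNAs). For most of them, small RNA (sRNA) counts were taken to stand for reads of the miRNA on the other DNA strand. They are the genes of the deposited sRNA tables that do not code for protein and that overlap an annotated miRNA on the opposite strand by at least 1 base, found with Ensembl gene positions (release 115, WBcel235). They are 39 of 26941 non-protein-coding genes, and they face 40 of the 261 annotated miRNAs in 40 pairs. The tables were taken to hold reads antisense to each gene, so that a read of *mir-1* is counted on T09B4.14, a short gene of the opposite strand, and not on *mir-1*. By annotation 28 of the 39 are non-coding RNA genes, 10 are themselves miRNAs and 1 is a pseudogene.

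A miRNA is cut from a hairpin transcript, first in the nucleus by Drosha (DRSH-1) and its partner PASH-1 and then in the cytoplasm by Dicer (DCR-1). The mature strand is bound by the Argonautes ALG-1 and ALG-2 and pairs, mostly through its bases 2 to 8 (the seed), with mRNAs, which are then translated less or degraded. miRNAs with the same seed form families that can share targets. In *C. elegans* *lin-4* and *let-7* time larval development, *mir-1* is enriched in muscle, and *mir-71* is known for its part in stress resistance and lifespan. None of these steps needs the RNA-dependent RNA polymerases that make the other large class of worm sRNAs, the siRNAs antisense to mRNAs.

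The libraries were made from whole L1 larvae that had hatched overnight in buffer without food. PALS-22 restrains both the intracellular pathogen response and RNAi, VSRA-1 is an Argonaute that binds secondary siRNAs, and RRF-3 is the polymerase of the 26G siRNA pathway. In the N2 background, sRNA was sequenced from wild type and *pals-22(pig26)* with 3 libraries each, and mRNA from wild type (2), *pals-22(pig26)* (3), *rrf-3(pk1426)* (3) and *rrf-3(pk1426); pals-22(pig26)* (2). The other background carries *otIs356 [rab-3p(prom1)::2xNLS::TagRFP]*, a repetitive array put into the genome, whose *rab-3* promoter makes a red reporter in nuclei of neurons, and N2 lacks it. There, each RNA type was sequenced in 14 libraries: wild type (4), *vsra-1(tm1637)* (4), *pals-22(pig26)* (3) and the *vsra-1(tm1637); pals-22(pig26)* double mutant (3). Wild type in *otIs356* thus means no mutation beside the transgene. No source says that the replicates came from separate cultures, so p values measure the spread between these libraries, which may be technical. In whole animals, fewer cells of a type and less RNA per cell cannot be told apart.

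The mature sequences below are those the results turn on, given 5′ to 3′ with the seed in capitals, from RefSeq (WBcel235). RefSeq matched all 28 miRNAs that face a gene with a mean of 5 reads per 1000000 library reads (RPM) or more in either table. Of an annotated hairpin's arms, a is the 5′ arm and b the 3′ arm, and the tables do not say from which arm a read came. The first 5 belong to abundant miRNAs.
mir-52 a: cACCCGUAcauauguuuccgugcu
mir-55 b: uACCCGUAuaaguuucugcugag
mir-90 b: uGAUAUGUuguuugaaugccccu
mir-80 b: uGAGAUCAuuaguugaaagccga
mir-45 b: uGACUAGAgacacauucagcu
*mir-52* and *mir-55* share the seed of the *mir-51* family, and *mir-90* shares its seed with *mir-50* and *mir-62*. *mir-80* carries the seed of the *mir-58* family, the worm relatives of fly bantam. The sequence of *mir-45* b is the same as that of *mir-44* b and matches the genome at 2 places, so reads of these miRNAs could not be told apart by sequence. The next 6 face genes whose level differed between genotypes.
mir-46 b: uGUCAUGGagucgcucucuuca
mir-87 b: gUGAGCAAaguuucaggugugc
mir-60 b: uAUUAUGCacauuuucuaguuca
mir-260 b: gUGAUGUCgaacucuuguag
mir-262 b: gUUUCUCGauguuuucugau
mir-253 b: uUAGUAGGcguugugggaaggg
*mir-46* shares its seed with *mir-47*, *mir-87* with *mir-233* and *mir-356a*, and no other annotated miRNA has the seed of *mir-60*, *mir-260*, *mir-262* or *mir-253* b. The last 5 belong to genes that 1 library or few reads decided.
lin-4 a: uCCCUGAGaccucaaguguga
mir-85 b: uACAAAGUauuugaaaagucgugc
mir-124 b: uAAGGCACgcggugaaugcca
mir-5592-1 a: cGGCCCUUaccguuuaauacaug
mir-5592-1 b: uGUAUUAAacgguaagggccggc
*mir-5592-1* and *mir-5592-2* lie opposite each other at the same place with the same mature sequences, so each of the pair is a member that faces the other, and their reads cannot be assigned to a strand by sequence.

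sRNA totals were 11483077 to 43362769 reads per library in N2 and 7950015 to 21594026 in *otIs356*. Where no read was counted, as many as 3 remain possible, at most 0.261 RPM for N2 and 0.377 RPM for *otIs356*, a limit that covers counting error only. In mRNA from N2, the summed level of the sperm markers *msp-3* and *msp-142* was 13.99 to 53.3 TMM-scaled counts per 1000000 (CPM) in *pals-22(pig26)* and 0.892 to 3.89 in wild type, although L1 larvae hold no sperm. The summed level of 3 adult-stage genes (*col-19*, *vit-2*, *vit-6*) was 29.1 to 64.1 CPM there against 4.03 to 12.9. In *otIs356* it reached 94.1 in double-mutant replicate 1, against 6.37 and 1.20 in replicates 2 and 3. The sperm sum was 6.02 CPM in that replicate and 0 in replicates 2 and 3. The sRNA library with the same replicate number stood apart at the genes opposite *lin-4* and *mir-85* (below). All marker sets of somatic tissues (4 genes of body wall muscle, 1 of pharynx muscle, 4 of neurons, 3 of intestine and 3 of hypodermis) were detected in every group. The sRNA libraries were not necessarily from the same RNA, and the part of sperm, adult-stage or germ-line RNA in the results was not tested.

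The genes opposite miRNAs took a large part of every sRNA library, and this part was smaller in *pals-22(pig26)* than in wild type in both backgrounds. In N2 they held 45.8 ± 1.34% of the reads in wild type (SD, n = 3) and 32.3 ± 1.46% in *pals-22(pig26)* (n = 3), and the groups did not overlap. In *otIs356* they held 41.9 ± 3.84% in wild type (n = 4), 31.6 ± 5.40% in *pals-22(pig26)* (n = 3), 43.4 ± 1.59% in *vsra-1(tm1637)* (n = 4) and 40.8 ± 4.52% in the double mutant (n = 3). There the lowest wild-type library, at 38.0%, lay just above the highest *pals-22(pig26)* library, at 37.5%, and the other groups overlapped wild type. No test was run on these sums, since they add up chosen genes. A share falls also when other sRNAs in the library rise. The tests below scale libraries with TMM factors, which set the change of a typical gene near 0 and so do not remove this. In N2, where most tested genes had a higher RPM in *pals-22(pig26)*, they made the falls of these genes larger. T09B4.14 alone, opposite *mir-1*, held 44.9% of these reads in N2 wild type and 29.2% in *otIs356* *vsra-1(tm1637)*, the highest and lowest group means.

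**Figure D1:**
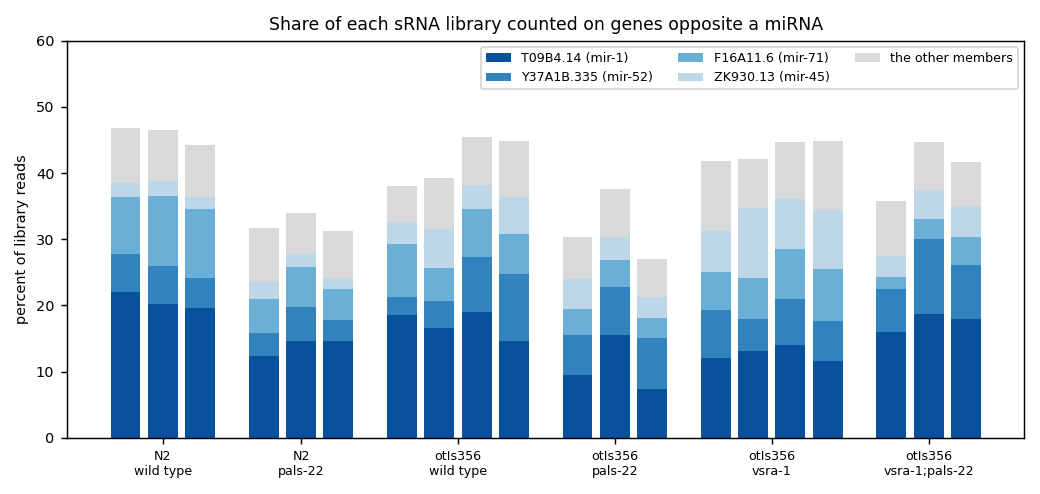
Percent of each sRNA library's reads (1 bar per library, 6 groups) counted on genes opposite a miRNA, with the 4 leading genes in shades of blue and the others in grey. Bars of *pals-22(pig26)* are lower than those of wild type in both backgrounds, 32.3% against 45.8% on average in N2 and 31.6% against 41.9% in *otIs356*.

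The reads lay on a few short genes. Averaged over a table, 27 of the 39 genes had at least 5 RPM in N2 or in *otIs356*, 21 had over 100 and 15 over 1000, and the 12 others were below 5 RPM in both. Together the 39 genes held 390843 RPM in N2 and 398666 in *otIs356*. The miRNAs they face that are not members themselves held 8.82 RPM in N2 and 9.26 in *otIs356*. From this difference the tables were read as antisense counts. The 12 genes below 5 RPM include 3 that overlap no mature arm of their miRNA: T09A5.19 shares only 5 bases with the hairpin of *mir-57*, EGAP1.4 shares 18 with that of *mir-67*, and C05G5.8 lies within the annotated *let-7* gene but on neither arm. None of these 3 passed 0.126 RPM on average in either table, so the tables hold no usable count for these miRNAs. Protein-coding genes also lie opposite miRNAs, in 36 pairs, but only 4 of these overlap an exon, and the highest exonic pair had 52.8 RPM.

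Per length of exon, as RPM divided by kilobases of exon (RPKM), the order in wild type began with T09B4.14 (*mir-1*) in both backgrounds, at 1634980 in N2 and 1363960 in *otIs356*. F16A11.6 (*mir-71*), Y37A1B.335 (*mir-52*), ZK930.13 (*mir-45*) and cel-mir-55b (*mir-55*) followed in N2, at 659268, 356299, 252357 and 176365 RPKM. In *otIs356* ZK930.13 came before F16A11.6 and Y37A1B.335, at 565474 RPKM against 438004 and 423020. WBGene00018199 (*mir-260*), with 756 bases of exon against 126 for T09B4.14, was the 9th in reads but only the 12th per length in N2. Counts of the backgrounds come in separate tables, and no source says that their libraries were made or sequenced together. A difference in level between N2 and *otIs356* thus cannot be told apart from one between sequencing runs.

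**Figure D2:**
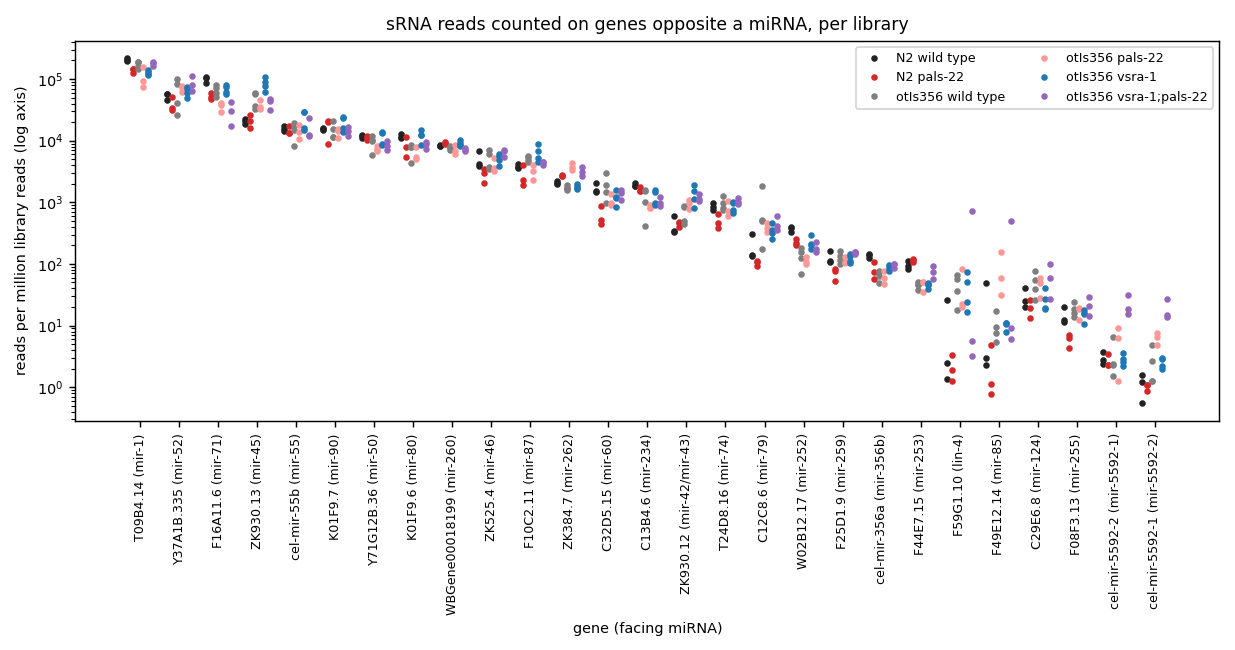
sRNA level in RPM (log axis) on each of the 27 genes with a mean over all libraries of 5 RPM or more, each labelled with the miRNA it faces, with 1 point per library coloured by group. T09B4.14 is the highest in the mean over libraries, and at *lin-4* and *mir-85* single libraries lie far above the rest of their group.

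In N2, loss of *pals-22* lowered most of these genes and raised none. Of the 25 genes that passed the filter of 5 RPM in at least 1 library, 19 fell and 0 rose in *pals-22(pig26)* against wild type (edgeR quasi-likelihood test, adjusted p under 0.1 with Benjamini-Hochberg over all 7243 genes tested), while 39.1% of all tested genes were called, 18.3% higher and 20.8% lower. None of the 25 was higher at an unadjusted p under 0.05 either (19 were lower), where 3015 of all 7243 genes passed. DESeq2 called 0 higher and 18 lower, where it called 1067 of 7242 genes higher and 1293 lower. The median log2 fold change (log2FC) was -0.92 over the 25 genes and 0.01 over all tested genes. Without TMM factors the median over the 25 genes moved to -0.57, that over all genes to 0.35 and the split of all calls from 1329 higher and 1506 lower to 5003 higher and 603 lower. On that scale 17 of the 25 were lower (cel-mir-55b and Y71G12B.36 lost the call) and 2 (ZK384.7 and F44E7.15) higher, and 24 of 25 lay below the all-gene median. Among those that kept the call, the log2FC moved by over 1.5 times for T09B4.14 (to -0.57), Y37A1B.335 (-0.44), K01F9.6 (-0.51), F10C2.11 (-0.49), C13B4.6 (-0.24) and C29E6.8 (-0.62). F59G1.10 (*lin-4*) and F49E12.14 (*mir-85*) passed the filter only through wild-type replicate 3, so their falls give no support to the count of 19. Without that library 17 of 23 were lower. In RPM, with no scaling beyond the library total, 11 of the 25 genes were lower in every mutant library than in every wild-type library and 2 were higher, where 7.01% and 65.4% of all tested genes were.

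In *otIs356* the same mutation changed fewer of them and in both directions. Of 28 genes tested, 4 fell and 3 rose, where 26.3% of all 8042 genes tested were called, 11.7% higher and 14.6% lower. The count rests in part on wild-type replicate 1, without which 8 fell and 2 rose, where 1075 of 8012 genes tested fell and 770 rose. Of the 3 that rose, cel-mir-5592-1 passed the filter only through libraries that lack *pals-22*, where it is high, so its rise gives no support to that count. The genes that fell faced *mir-1*, *mir-71*, *mir-87* and *mir-60*, and those that rose faced *mir-262*, *mir-85* and *mir-5592-2*. The median log2FC was -0.22 over the 28 genes and -0.01 over all, and the split of all calls, 942 higher and 1174 lower, became 1055 and 742 without TMM factors. In RPM 2 of the 28 genes were lower in every mutant library than in every wild-type library and 2 were higher, where 9.23% and 15.5% of all genes were. The 4 that fell are also lower in N2. Of the 25 genes tested in both backgrounds, 21 had a negative log2FC in both. The share of all genes that did was not counted, so this number is a description only. The effect of *pals-22(pig26)* was more negative in N2 than in *otIs356* for 6 of 28 genes and less negative for none, where 14.4% of all genes differed, 7.20% in each direction. Of the 6, cel-mir-5592-1 passed the filter only through *otIs356* libraries that lack *pals-22*, so its difference gives no support to that count. None of the 28 was less negative at an unadjusted p under 0.05, where 1883 of all 8320 genes passed in either direction. DESeq2 called 0 in that direction and 7 in the other, where it called 717 and 763 of 8250 genes. The count of 6 fell to 3 without N2 *pals-22(pig26)* replicate 1 or 3 or N2 wild-type replicate 3. Without TMM factors the split of all differing genes moved from 599 higher and 599 lower to 1643 and 290, with 0 and 6 among these genes.

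**Figure D3:**
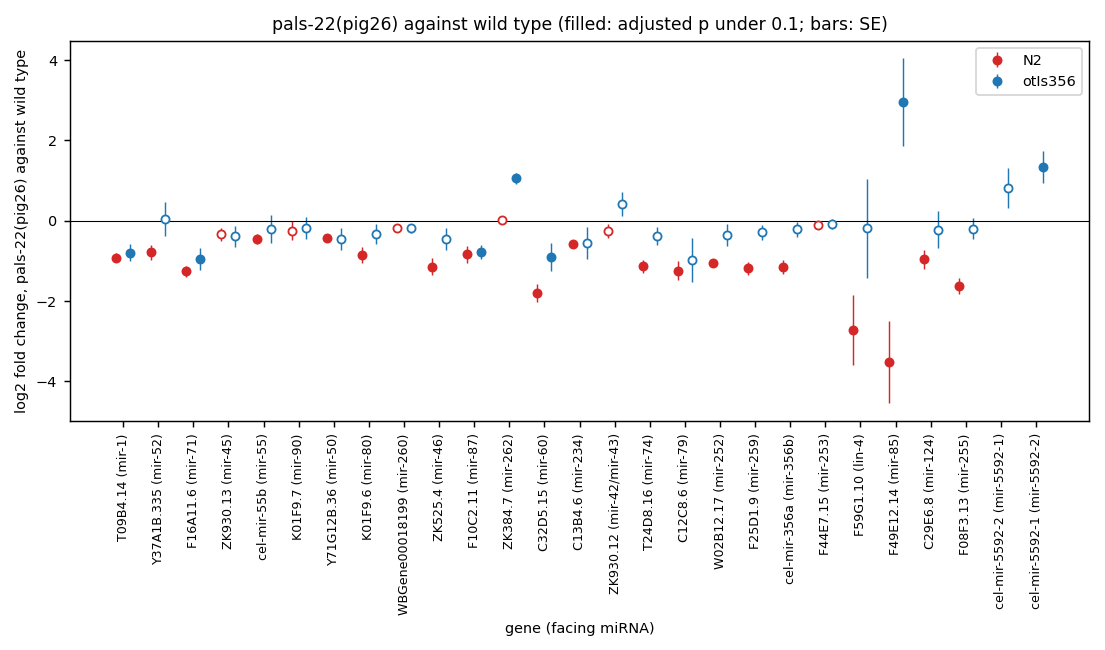
Log2 fold change of *pals-22(pig26)* against wild type (y axis) for each of the 27 genes with a mean of 5 RPM or more in either table, in N2 (red) and *otIs356* (blue), with bars for the SE and filled points for adjusted p under 0.1. In N2, 19 of 25 points are filled and all of these lie below 0, and in *otIs356* 4 filled points lie below 0 and 3 above. The N2 points at *lin-4* and *mir-85* passed the filter only through wild-type replicate 3.

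Loss of *vsra-1* alone changed none of the 28 genes by the main test, where 4.96% of all genes were called (2.66% higher and 2.30% lower). At an unadjusted p under 0.05, 3 were higher and 4 lower, where 1263 of all 8042 genes passed. DESeq2 called 2 higher and 1 lower, where it called 410 of 7810 genes higher and 323 lower. Without TMM factors, which moved the all-gene median by 0.18 and the split of all calls from 214 higher and 185 lower to 878 and 84, 4 of these genes were called higher and 0 lower. In RPM 1 gene lay below wild type in every library and 4 above it, where 1.48% and 16.2% of all genes did. When *vsra-1* was lost in the absence of *pals-22* (double mutant against *pals-22(pig26)*), 3 of 28 rose and 0 fell, where 6.69% of all genes rose and 3.34% fell. The 3 were F44E7.15 and the mirrored pair cel-mir-5592-1 and cel-mir-5592-2. Reads of the pair cannot be assigned to a strand by sequence, so these genes may stand for 1 signal counted on both. At an unadjusted p under 0.05, 6 were higher and 1 lower, where 1479 of all 8042 genes passed. DESeq2 called 5 higher and 0 lower, where it called 704 of 7922 genes higher and 373 lower. Without TMM factors 5 were higher and 0 lower, and the split of all calls moved from 538 and 269 to 546 and 145. In RPM 0 genes lay below and 8 above *pals-22(pig26)* in every double-mutant library, where 4.13% and 13.4% of all genes did. When *pals-22* was lost in the absence of *vsra-1* (double mutant against *vsra-1(tm1637)*), 6 of 28 rose and 4 fell, where 12.1% of all genes rose and 10.5% fell (22.6% in all). Of the 6 that rose, cel-mir-5592-1 passed the filter only through libraries that lack *pals-22*, so its rise gives no support to that count. Its mirror gene cel-mir-5592-2 is among the 6 too. In RPM 3 lay below and 5 above in every library, where 12.5% and 10.8% of all genes did. An interaction term, which tests whether loss of *vsra-1* acts differently with and without *pals-22*, was positive for 2 of 28 and negative for 0, where 5.76% and 3.15% of all genes were (8.90% in all). At an unadjusted p under 0.05 it was positive for 7 and negative for 0, where 1421 of all 8042 genes passed. DESeq2 called 4 positive and 0 negative, where it called 586 of 7922 genes positive and 403 negative. Without TMM factors the split of all calls of this term moved from 463 and 253 to 265 and 255, with 1 and 0 among these genes. These counts rest in part on single libraries. For *vsra-1(tm1637)* against wild type 1 gene was called without wild-type replicate 1, 2 or 4 or mutant replicate 2. Against *pals-22(pig26)* the double mutant had 1 gene higher and 0 lower without *pals-22(pig26)* replicate 1, and 1 higher and 2 lower (F59G1.10 and F49E12.14) without double-mutant replicate 1. The count fell to 6 against *vsra-1(tm1637)* without double-mutant replicate 1. Without double-mutant replicate 1 the interaction was positive for 2 genes and negative for 2, F59G1.10 (-3.003, adjusted p = 0.079) and F49E12.14 (-3.34, adjusted p = 0.013). Without wild-type replicate 1 it was positive for 5 and negative for 0. The comparisons within *otIs356* share libraries, so their results are not independent.

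T09B4.14 (chrI:6172671-6172796, + strand) covers both mature arms of *mir-1* (chrI:6172662-6172757, - strand), a conserved muscle miRNA. It fell in *pals-22(pig26)* in both backgrounds, and the double mutant overlapped wild type. In N2 the level was 219606, 202644 and 195773 RPM in the 3 wild-type libraries, against 123368, 146280.0 and 146621 in *pals-22(pig26)*. All mutant libraries were below all wild-type libraries, with a log2FC of -0.92 ± 0.12, adjusted p = 9e-05 (edgeR quasi-likelihood test with Benjamini-Hochberg adjustment, as for every adjusted p here). In *otIs356* it was 185906, 165333, 189408 and 146789 RPM in wild type, against 94345, 155278 and 73048 in *pals-22(pig26)*. It was 119756, 131090.0, 139431 and 116640.0 RPM in *vsra-1(tm1637)* and 160452, 186917 and 179944 in the double mutant. The highest *pals-22(pig26)* library lay above the lowest wild-type library, and the log2FC was -0.80 ± 0.21, adjusted p = 0.015. All *vsra-1(tm1637)* libraries lay below all wild-type libraries, but the log2FC of -0.64 did not pass the test (adjusted p = 0.103). All double-mutant libraries lay above every *pals-22(pig26)* and every *vsra-1(tm1637)* library. Neither comparison of the double mutant with a single mutant passed the test (0.65 ± 0.22, adjusted p = 0.11 against *pals-22(pig26)* and 0.50 ± 0.21, adjusted p = 0.12 against *vsra-1(tm1637)*), but without *pals-22(pig26)* replicate 2 the first did (0.91, adjusted p = 0.018), as it did without TMM factors (0.71, adjusted p = 0.083). The interaction term did pass, at 1.29 ± 0.29, adjusted p = 0.015, and this call and those of *pals-22(pig26)* against wild type held with each library left out in turn. The effect of *pals-22(pig26)* did not differ detectably between the backgrounds (-0.15 ± 0.28, adjusted p = 0.83).

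Body wall muscle mRNA was lower in *otIs356* *pals-22(pig26)*, as *mir-1* reads were, while its N2 ranges overlapped. Pharynx muscle mRNA was higher in N2 *pals-22(pig26)*. The summed CPM of 4 body wall muscle genes (*myo-3*, *unc-54*, *unc-15*, *hlh-1*) was 1398 to 2132 in N2 wild type and 912 to 1535 in N2 *pals-22(pig26)*, ranges that overlapped. The same sum in *otIs356* was 3146 to 4244 in wild type, 1425 to 1787 in *pals-22(pig26)*, 1199 to 3291 in *vsra-1(tm1637)* and 1284 to 2559 in the double mutant. The *otIs356* *pals-22(pig26)* libraries thus lay below all wild-type libraries, while the double mutant, in which the *mir-1* reads were high, did too. *myo-2*, the pharynx muscle myosin gene, was at 5.33 to 7.16 CPM in N2 wild type and higher in N2 *pals-22(pig26)*, at 13.1 to 20.7. Its *otIs356* ranges overlapped, at 10.5 to 58.3 CPM in wild type with 17.8 to 22.3 after loss of *pals-22*. The part of muscle RNA in the result was not tested.

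**Figure D4:**
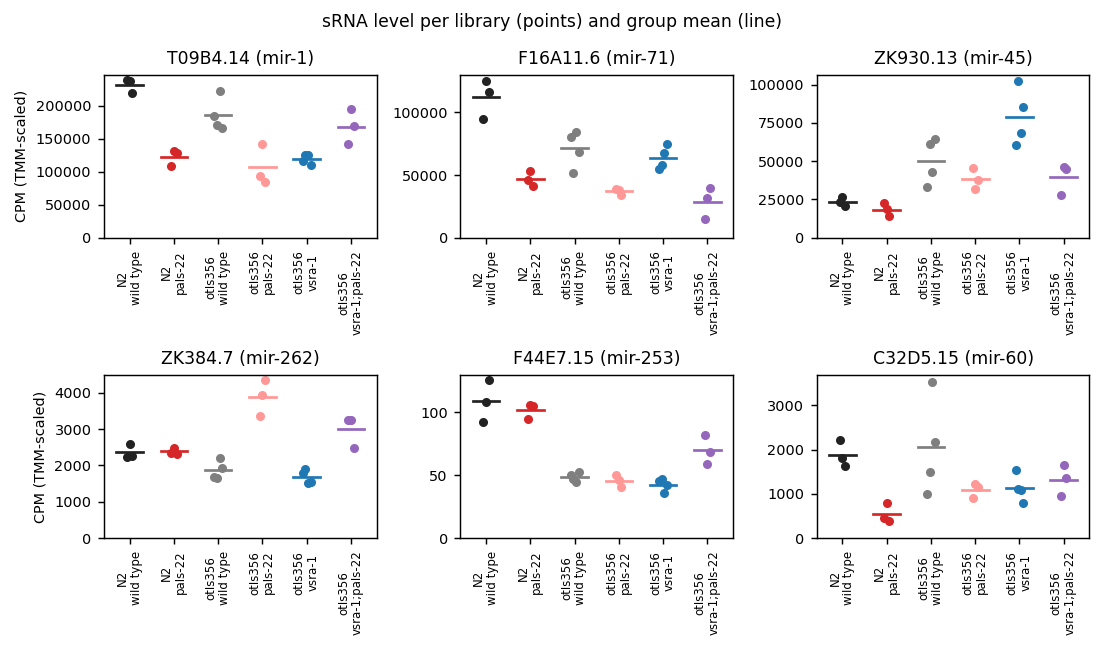
sRNA level in TMM-scaled CPM (y axis from 0) of 6 genes opposite *mir-1*, *mir-71*, *mir-45*, *mir-262*, *mir-253* and *mir-60* in the 6 groups, with 1 point per library and a line at the group mean. The double mutant lies near wild type for *mir-1* and lowest of all groups for *mir-71*, and *mir-262* is high in both *otIs356* groups without *pals-22*.

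F16A11.6 (chrI:9379946-9380095, + strand) faces *mir-71*, which lies within *ppfr-1* on its own strand and acts in lifespan and stress responses. It was lower in every group without *pals-22*, with or without *vsra-1*. In N2 the level was 86904, 106262 and 103505 RPM in the 3 wild-type libraries, against 51634, 59577 and 47323 in *pals-22(pig26)*. The groups were far apart, and the log2FC was -1.25 ± 0.14, adjusted p = 2.1e-05. In *otIs356* it was 80811, 50230.4, 71676 and 60085 RPM in wild type, against 38605, 41465 and 29383 in *pals-22(pig26)*. It was 56931, 60970.1, 74952 and 78667 RPM in *vsra-1(tm1637)* and 17374, 30246 and 42029.7 in the double mutant. Every library without *pals-22* lay below every library with it. The log2FC was -0.95 ± 0.27, adjusted p = 0.025 for *pals-22(pig26)* against wild type and -1.15 ± 0.28, adjusted p = 0.012 for the double mutant against *vsra-1(tm1637)*. Loss of *vsra-1* alone gave -0.15 ± 0.25, adjusted p = 0.84, and its loss without *pals-22* -0.36 ± 0.29, adjusted p = 0.58, neither past the test. The effect of *pals-22(pig26)* on F16A11.6 did not differ detectably between N2 and *otIs356* (-0.33 ± 0.36, adjusted p = 0.65).

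The *mir-51* family, abundant miRNAs needed together for embryonic development, is seen through Y37A1B.335 (chrIV:14033942-14034090, - strand, opposite *mir-52*) and cel-mir-55b (chrX:13144830-13144919, + strand, opposite *mir-55*). Both fell in N2, cel-mir-55b only with TMM factors, and neither was called in *otIs356*. For Y37A1B.335, in N2 the level was 57360.2, 56272 and 45633 RPM in the 3 wild-type libraries, against 34528, 51693 and 30962 in *pals-22(pig26)*. The highest mutant library lay within the range of wild type, and the log2FC after scaling was -0.79 ± 0.18, adjusted p = 0.0054. In *otIs356* Y37A1B.335 was 26481, 41052, 84230.1 and 100357 RPM in wild type, against 60928, 72004 and 77727 in *pals-22(pig26)*. It was 73248, 48883, 70235 and 59548 RPM in *vsra-1(tm1637)* and 64695, 112916 and 80806 in the double mutant. The wild-type libraries alone spread about as widely as all groups together, and *pals-22(pig26)* against wild type gave 0.04 ± 0.42, adjusted p = 0.97. For cel-mir-55b, N2 held 17429, 14533 and 15656 RPM in wild type, against 17239, 13151 and 13538 in *pals-22(pig26)*. These ranges overlapped, and after scaling the log2FC was -0.46 ± 0.12, adjusted p = 0.011. Without TMM factors it was -0.12 (adjusted p = 0.40), and that of Y37A1B.335 was -0.44 (adjusted p = 0.033). In *otIs356* cel-mir-55b was 8207, 19579.7, 15084 and 17549.8 RPM in wild type, against 14065, 17793 and 10784 in *pals-22(pig26)*. It was 28938, 14709, 16071 and 29634 RPM in *vsra-1(tm1637)* and 23234, 12236 and 12036 in the double mutant. No group stood clear of another, and *pals-22(pig26)* against wild type gave -0.21 ± 0.34, adjusted p = 0.73.

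ZK930.13 (chrII:11880952-11881033, + strand) faces *mir-45*, whose 3′ arm it cannot separate from *mir-44*, and ZK525.4 (chrIII:13660520-13660603, - strand) faces *mir-46*, which together with its family member *mir-47* is required in the embryo. ZK930.13 was highest in *vsra-1(tm1637)*, and ZK525.4 fell in N2 *pals-22(pig26)*. In N2 ZK930.13 was 21189, 22448 and 18443 RPM in the 3 wild-type libraries, against 25797, 20719 and 15894 in *pals-22(pig26)*. The ranges overlapped and the log2FC of -0.34 did not pass the test (adjusted p = 0.13), though it did without *pals-22(pig26)* replicate 1 (-0.52, adjusted p = 0.025). In *otIs356* it was 33112, 59212, 36544 and 56607 RPM in wild type, against 45348, 35056 and 32502 in *pals-22(pig26)*. It was 62229, 106766, 75866 and 89809 RPM in *vsra-1(tm1637)* and 31833, 44343 and 47866 in the double mutant. All *vsra-1(tm1637)* libraries lay above all other *otIs356* libraries. The gene fell by 0.99 on the log2 scale from *vsra-1(tm1637)* to the double mutant (-0.99 ± 0.28, adjusted p = 0.026), and not past the test without double-mutant replicate 1 (-0.79, adjusted p = 0.16). The comparison of *pals-22(pig26)* with wild type gave -0.39 ± 0.27, adjusted p = 0.36. In N2 ZK525.4 was 6886, 3902 and 4121 RPM in the 3 wild-type libraries, against 3031, 3455 and 2059.9 in *pals-22(pig26)*. All mutant libraries were below all wild-type libraries, at -1.14 ± 0.21, adjusted p = 0.0012. In *otIs356* ZK525.4 was 3416, 3735, 7024 and 6179 RPM in wild type, against 3206, 5328 and 3662 in *pals-22(pig26)*, ranges that overlapped (-0.45 ± 0.28, adjusted p = 0.3). It was 5541, 3922, 6056 and 4797 RPM in *vsra-1(tm1637)* and 7122, 6757 and 5468 in the double mutant, with no call.

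K01F9.7 (chrIII:8873960-8874078, + strand, opposite *mir-90*) and Y71G12B.36 (chrI:1738614-1738724, - strand, opposite *mir-50*) face miRNAs with the same seed. Of the pair, Y71G12B.36 fell in N2, and K01F9.7 was not called. In N2 K01F9.7 was 15219, 15872 and 15062 RPM in the 3 wild-type libraries, against 20368, 8849 and 20583 in *pals-22(pig26)*. Mutant replicate 2 was the lowest of the 6 libraries and the others of its group the highest, and the log2FC was -0.24 ± 0.24, adjusted p = 0.48. In *otIs356* the gene was 11575, 15251, 11538 and 20528 RPM in wild type, against 15752, 11176 and 14244 in *pals-22(pig26)*. It was 24597, 15991, 13853 and 22919.7 RPM in *vsra-1(tm1637)* and 16624, 14554 and 12030.1 in the double mutant. The groups overlapped throughout, and *pals-22(pig26)* against wild type gave -0.18 ± 0.27, adjusted p = 0.72. For Y71G12B.36, N2 held 11031, 11973 and 12308 RPM in wild type, against 11870.3, 10439 and 11012 in *pals-22(pig26)*. The ranges overlapped in RPM, and after scaling the gene fell, at -0.43 ± 0.10, adjusted p = 0.0069, but not without TMM factors (-0.084, adjusted p = 0.45). In *otIs356* the gene was 5775, 10333, 9968 and 11749.5 RPM in wild type, against 8271, 7297 and 6719 in *pals-22(pig26)*. It was 13132, 8856, 8359 and 14042 RPM in *vsra-1(tm1637)* and 7153, 9731 and 8209 in the double mutant. *pals-22(pig26)* lay within the range of wild type (-0.45 ± 0.28, adjusted p = 0.3), though the call was made without wild-type replicate 1, its lowest library (-0.65, adjusted p = 0.073).

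K01F9.6 (chrIII:8865268-8865366, + strand) faces *mir-80*, a *mir-58* family member. It fell in N2 and was not called in *otIs356*. In N2 the level was 11390.5, 10923 and 12807 RPM in the 3 wild-type libraries, against 11313, 5489 and 7806 in *pals-22(pig26)*. The highest mutant library lay within the wild-type range, and the log2FC was -0.86 ± 0.20, adjusted p = 0.0054. In *otIs356* the gene was 4426, 8427, 7823 and 7924 RPM in wild type, against 5493, 7933 and 5138 in *pals-22(pig26)*. It was 12158, 8483, 14881 and 12221 RPM in *vsra-1(tm1637)* and 7221, 9664 and 8921 in the double mutant. All *vsra-1(tm1637)* libraries lay above all wild-type libraries, without a call. Wild-type replicate 1 was apart from the other wild-type libraries, and without it *pals-22(pig26)* against wild type passed the test (-0.52, adjusted p = 0.089), while with it the log2FC was -0.33 ± 0.25, adjusted p = 0.42. F10C2.11 (chrV:12038653-12039151, + strand) faces *mir-87*, which lies within *kup-1* on its own strand. It fell in both backgrounds. In N2 F10C2.11 was 3651, 4158 and 3742 RPM in the 3 wild-type libraries, against 2338, 3989.5 and 1893 in *pals-22(pig26)*. The highest mutant library lay within the wild-type range, at -0.84 ± 0.22, adjusted p = 0.011. Its level in *otIs356* was 5660.0, 5528, 4783 and 4438 RPM in wild type, against 3240.1, 4021 and 2332 in *pals-22(pig26)*, which did not overlap (-0.78 ± 0.18, adjusted p = 0.0067). It was also lower in the double mutant than in *vsra-1(tm1637)* (-0.52 ± 0.18, adjusted p = 0.065), a call lost when any of 5 libraries was left out (adjusted p = 0.10 to 0.21) and without TMM factors (0.15).

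C32D5.15 (chrII:6328709-6328794, + strand) faces *mir-60*, an intestinal miRNA. It had the largest fall in N2 among the genes over 1000 RPM. In N2 the level was 2040.3, 1546 and 1448 RPM in the 3 wild-type libraries, against 513, 884 and 441 in *pals-22(pig26)*. No library of the groups overlapped, and the log2FC was -1.79 ± 0.22, adjusted p = 4.8e-05, the largest but for the low genes opposite *lin-4* and *mir-85*. In *otIs356* it was 993, 1444, 3009 and 1922 RPM in wild type, against 902, 1346 and 986 in *pals-22(pig26)*, which overlapped. The log2FC of -0.91 ± 0.36, adjusted p = 0.093 passed the test, and it did not without wild-type replicate 3, the highest library (-0.49, adjusted p = 0.30), nor without wild-type replicate 4 or any of the mutant libraries, nor without TMM factors (-0.77, adjusted p = 0.11). Without the lowest wild-type library, replicate 1, *vsra-1(tm1637)* was called lower than wild type (-1.08, adjusted p = 0.076). The summed CPM of 3 intestine genes (*elt-2*, *ges-1*, *act-5*) was 228 to 259 in N2 wild type and 422 to 442 in N2 *pals-22(pig26)*, so these mRNAs were higher there. Their *otIs356* ranges overlapped, at 277 to 387 in wild type with 325 to 365 after loss of *pals-22*. The mRNA of *zip-10*, a transcription factor gene reported as a *mir-60* target, was 19.03 and 21.2 CPM in N2 wild type, against 84.9, 90.8 and 95.0 in *pals-22(pig26)*. It rose by a log2FC of 2.17 ± 0.10, adjusted p = 9e-07 there and by 1.84 ± 0.54, adjusted p = 0.07 in *otIs356*, where 51.1% and 10.9% of all genes tested were called (23.3% and 5.78% higher). The *otIs356* libraries had 14.3, 20.6, 13.3 and 36.0 CPM in wild type, against 70.1, 103 and 53.8 in *pals-22(pig26)*, which did not overlap, but the call there was lost without any library other than wild-type replicate 4 (adjusted p = 0.11 to 0.25). Whether the reads of *mir-60* have a part in this was not tested.

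WBGene00018199 (chrII:3306144-3307505, - strand, a pseudogene with 3 exons that holds *mir-260*) and ZK384.7 (chrV:18736689-18737785, - strand, 3 exons, opposite *mir-262*) are longer, so their antisense reads may be miRNA reads or siRNAs against the rest of their exons, which cannot be told apart here. The same holds for F10C2.11 (*mir-87*) and W02B12.17 (*mir-252*), with 499 and 364 bases of exon. WBGene00018199 and ZK384.7 were the 2 genes with higher RPM in every N2 mutant library. In N2 WBGene00018199 was 8050.3, 8082 and 8471 RPM in the 3 wild-type libraries, against 8886, 9359 and 9278 in *pals-22(pig26)*. After scaling this became -0.19 ± 0.09, adjusted p = 0.15. In *otIs356* the gene was 8055, 7067, 7469 and 7779 RPM in wild type, against 6851, 8424 and 6095 in *pals-22(pig26)*. It was 8449, 8071, 10267 and 9186 RPM in *vsra-1(tm1637)* and 7601, 6824 and 6979 in the double mutant. All groups overlapped wild type except *vsra-1(tm1637)*, which lay just above it. *pals-22(pig26)* against wild type gave -0.19 ± 0.11, adjusted p = 0.25. The double mutant was lower than *vsra-1(tm1637)* (-0.32 ± 0.11, adjusted p = 0.059), a call lost without any of 4 libraries (adjusted p = 0.12 to 0.22) and without TMM factors (0.12). WBGene00018199 is the only one of the 39 with an entry in the mRNA tables that passed the filter. Its poly(A) level in N2 was 15.4 and 14.8 CPM in wild type. The level was 10.998, 10.4 and 12.1 in *pals-22(pig26)*, 150.3, 162 and 121 in *rrf-3(pk1426)* and 121 and 127 in the double mutant. It rose without *rrf-3* (3.26 ± 0.14, adjusted p = 3.5e-06 against wild type and 3.47 ± 0.13, adjusted p = 3.2e-06 in the absence of *pals-22*), where 67.7% and 35.6% of all genes were called (31.9% and 18.5% higher), and fell in *pals-22(pig26)* (-0.43 ± 0.12, adjusted p = 0.024), though not past the test without TMM factors (-0.24, adjusted p = 0.32). For ZK384.7, N2 held 2054, 2212 and 2009 RPM in wild type, against 2642, 2776 and 2646 in *pals-22(pig26)*, and the log2FC was 0.01 ± 0.09, adjusted p = 0.93. In *otIs356* ZK384.7 was 1679, 1597, 1888 and 1703 RPM in wild type, against 3354, 4308 and 3730.5 in *pals-22(pig26)*. It was 1849, 1993, 1691 and 1620.4 RPM in *vsra-1(tm1637)* and 3682, 3127 and 2652 in the double mutant. Every library without *pals-22* lay above every library with it. The gene rose by 1.05 ± 0.14, adjusted p = 9.7e-05 in *pals-22(pig26)* and by 0.83 ± 0.14, adjusted p = 0.0014 in the double mutant against *vsra-1(tm1637)*, and the N2 effect was lower than the *otIs356* effect (-1.07 ± 0.19, adjusted p = 0.00082). These calls of ZK384.7 held with each library left out in turn.

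F44E7.15 (chrV:5780500-5780645, + strand) covers the whole hairpin of *mir-253*, which lies within F44E7.5 on its own strand. It was 50.3, 45.7, 37.9 and 46.5 RPM in *otIs356* wild type, against 50.2, 50.8 and 34.7 in *pals-22(pig26)*, with a log2FC that did not pass the test. It was 46.7, 48.8, 39.7 and 44.7 RPM in *vsra-1(tm1637)* and 93.0, 56.3 and 73.2 in the double mutant, and all double-mutant libraries lay above all other *otIs356* libraries. It rose from *pals-22(pig26)* to the double mutant (0.61 ± 0.13, adjusted p = 0.0091) and from *vsra-1(tm1637)* to the double mutant (0.72 ± 0.12, adjusted p = 0.0012). The interaction term was positive, at 0.80 ± 0.17, adjusted p = 0.011, with each library left out in turn as well, but not past the test without TMM factors (0.71, adjusted p = 0.14). In N2 its log2FC was -0.10 ± 0.10, adjusted p = 0.51.

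Several other genes with over 100 RPM fell in N2. The genes opposite *mir-234*, *mir-74*, *mir-79* and *mir-252* (C13B4.6, T24D8.16, C12C8.6 and W02B12.17) fell by 0.59, 1.14, 1.25 and 1.05 on the log2 scale (adjusted p = 0.00082, 0.00017, 0.0014 and 3.1e-06). All 3 mutant libraries of each were below all wild-type libraries, and with all libraries none of the 4 was called in *otIs356* or in the test of the difference. Calls of a fall in *otIs356* *pals-22(pig26)* were gained by C13B4.6 and W02B12.17 without wild-type replicate 1 (adjusted p = 0.056 and 0.034) and by C12C8.6 without wild-type replicate 2 (0.055), which was then also called lower in *vsra-1(tm1637)* (0.052). The difference was called for T24D8.16 without any of 3 libraries (adjusted p = 0.038 to 0.086). F25D1.9 (*mir-259*) was 161, 113 and 107 RPM in N2 wild type, against 76.4, 82.7 and 52.9 in *pals-22(pig26)*, without overlap (-1.18 ± 0.16, adjusted p = 0.00013). cel-mir-356a, opposite *mir-356b*, was 141, 123 and 148 RPM and 72.7, 106 and 56.0, also without overlap (-1.15 ± 0.17, adjusted p = 0.00021). For both, the fall in N2 was larger than the change in *otIs356* by the test of the difference (-0.92 ± 0.28, adjusted p = 0.044, and -0.97 ± 0.30, adjusted p = 0.048), and for both that call was lost when some single libraries were left out (adjusted p = 0.10 to 0.15). ZK930.12, 1 gene opposite both *mir-42*, of the *mir-35* family of embryonic miRNAs, and *mir-43*, was not called in any comparison with all libraries (-0.26 ± 0.18, adjusted p = 0.3 in N2), but was called higher in *vsra-1(tm1637)* than in wild type without *vsra-1(tm1637)* replicate 2 (0.97, adjusted p = 0.075) or wild-type replicate 4 (0.99, adjusted p = 0.097).

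F08F3.13 and C29E6.8 are low. F08F3.13 (*mir-255*) was 19.7, 12.2 and 11.6 RPM in N2 wild type, against 6.20, 6.96 and 4.35 in *pals-22(pig26)*, and it fell by 1.63 on the log2 scale (adjusted p = 4.9e-05). Its *otIs356* range was 13.8 to 23.8 RPM in wild type, against 12.3 to 19.5 in *pals-22(pig26)*, with no call, and the effects differed between the backgrounds (-1.47 ± 0.39, adjusted p = 0.018). C29E6.8 faces *mir-124*, a conserved miRNA of neurons that lies within *trpa-1*. It was 40.9, 19.7 and 25.4 RPM in N2 wild type, against 13.3, 25.7 and 19.3 in *pals-22(pig26)* (-0.96 ± 0.24, adjusted p = 0.0098). The summed CPM of 4 neuron genes (*rab-3*, *unc-31*, *egl-3*, *snb-1*) was 779 to 824 there in *pals-22(pig26)*, below the 1014 to 1159 of wild type. This sum was also lower in *otIs356*, at 869 to 905 in *pals-22(pig26)* against 1063 to 1405 in wild type. C29E6.8 was not called in that comparison (-0.22 ± 0.46, adjusted p = 0.80). The part of neuron RNA in the result was not tested. In *otIs356* C29E6.8 rose from *vsra-1(tm1637)* to the double mutant (1.22 ± 0.45, adjusted p = 0.088), a call lost without any of 5 libraries (adjusted p = 0.16 to 0.39).

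At F59G1.10, opposite *lin-4*, the first miRNA of the larval timing pathway, and at F49E12.14, opposite *mir-85*, single libraries decided the values. F59G1.10 was 1.35, 2.51 and 25.9 RPM in N2 wild type, against 1.25, 3.38 and 1.92 in *pals-22(pig26)*. Its level in *otIs356* was 66.7, 57.6, 17.9 and 36.0 RPM in wild type, then 22.2, 83.4 and 20.3 in *pals-22(pig26)*, 73.7, 51.3, 24.0 and 16.6 in *vsra-1(tm1637)* and 719.5, 5.61 and 3.26 in the double mutant. Replicate 3 of N2 wild type and replicate 1 of the double mutant stood far above the others of their groups. The mRNA library of double-mutant replicate 1 had the highest adult-stage sum of *otIs356* (94.1 CPM). A link to these sRNA values was not tested. The fall in N2 (-2.72 ± 0.88, adjusted p = 0.032) was not called without *pals-22(pig26)* replicate 1 (-2.25, adjusted p = 0.15). The gene passed the filter only with wild-type replicate 3, so this fall is a description only. F49E12.14 was 3.01, 2.27 and 48.8 RPM in N2 wild type, against 1.13, 4.88 and 0.784 in *pals-22(pig26)*, with the same wild-type library high (-3.52 ± 1.02, adjusted p = 0.02, and -2.94, adjusted p = 0.10, without *pals-22(pig26)* replicate 1). It too passed the N2 filter only through that library, so its fall in N2 is also a description only. In *otIs356* it was 7.48, 5.51, 9.35 and 17.2 RPM in wild type, then 31.6, 157 and 58.3 in *pals-22(pig26)*, 10.8, 8.01, 11.02 and 10.8 in *vsra-1(tm1637)* and 499.5, 8.97 and 6.05 in the double mutant. All *pals-22(pig26)* libraries lay above all wild-type libraries (2.95 ± 1.10, adjusted p = 0.078), a call lost when any of 5 libraries was left out (adjusted p = 0.12 to 0.25). The rise from *vsra-1(tm1637)* to the double mutant (3.98 ± 1.12, adjusted p = 0.027) rested on double-mutant replicate 1 and turned to -0.36 without it (adjusted p = 0.79). The difference between the backgrounds (-6.44 ± 1.89, adjusted p = 0.034) was not called without N2 wild-type replicate 3 (-3.66, adjusted p = 0.31). Without double-mutant replicate 1 both genes were called lower in the double mutant than in *pals-22(pig26)* (-3.25 and -3.47, adjusted p = 0.023 and 0.0028). F59G1.10 was also called lower than in *vsra-1(tm1637)* without that library (-3.16, adjusted p = 0.022), and higher without double-mutant replicate 2 or 3 (3.02 and 3.03, adjusted p = 0.096 and 0.066).

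The mirrored pair cel-mir-5592-1 and cel-mir-5592-2, which lies within *aakb-1*, was highest in the double mutant. cel-mir-5592-1 was 1.25, 2.70, 1.25 and 4.78 RPM in *otIs356* wild type, then 4.78, 6.51 and 7.56 in *pals-22(pig26)*, 2.18, 1.98, 2.88 and 2.98 in *vsra-1(tm1637)* and 27.2, 14.01 and 14.9 in the double mutant. cel-mir-5592-2 was 1.54, 2.41, 2.32 and 6.42, 6.40, 9.26 and 1.24, 2.57, 2.22, 3.55 and 2.92 and 31.2, 18.3 and 15.4 RPM in the same order of groups. Every double-mutant library was above every other *otIs356* library at both genes. Against *vsra-1(tm1637)* the log2FC was 2.88 ± 0.38, adjusted p = 0.00017 for cel-mir-5592-1 and 2.93 ± 0.47, adjusted p = 0.00086 for cel-mir-5592-2, and both calls held with each library left out. Against *pals-22(pig26)* it was 1.45 ± 0.40, adjusted p = 0.041 and 1.82 ± 0.50, adjusted p = 0.041, and both calls were lost without double-mutant replicate 1 (adjusted p = 0.12 and 0.10) or without *pals-22(pig26)* replicate 1 (0.17 and 0.11), and that of cel-mir-5592-1 also without *pals-22(pig26)* replicate 2 (0.11). cel-mir-5592-1 passed the filter only through *pals-22(pig26)* and double-mutant libraries, at most 4.78 RPM elsewhere, so a difference from the other groups had to be seen and the tests against them are given as a description. It was higher in *pals-22(pig26)* than in wild type (1.34 ± 0.40, adjusted p = 0.031), and not past the test without mutant replicate 3 (1.10, adjusted p = 0.12), and this effect differed from that in N2 (-1.86 ± 0.62, adjusted p = 0.063), a call lost without any of 7 libraries (adjusted p = 0.10 to 0.20). cel-mir-8203, opposite *mir-786*, passed the filter only through double-mutant replicate 1, at 13.7 RPM against 1.29 and 0.931 in the others of its group, and was not called.

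**Figure D5:**
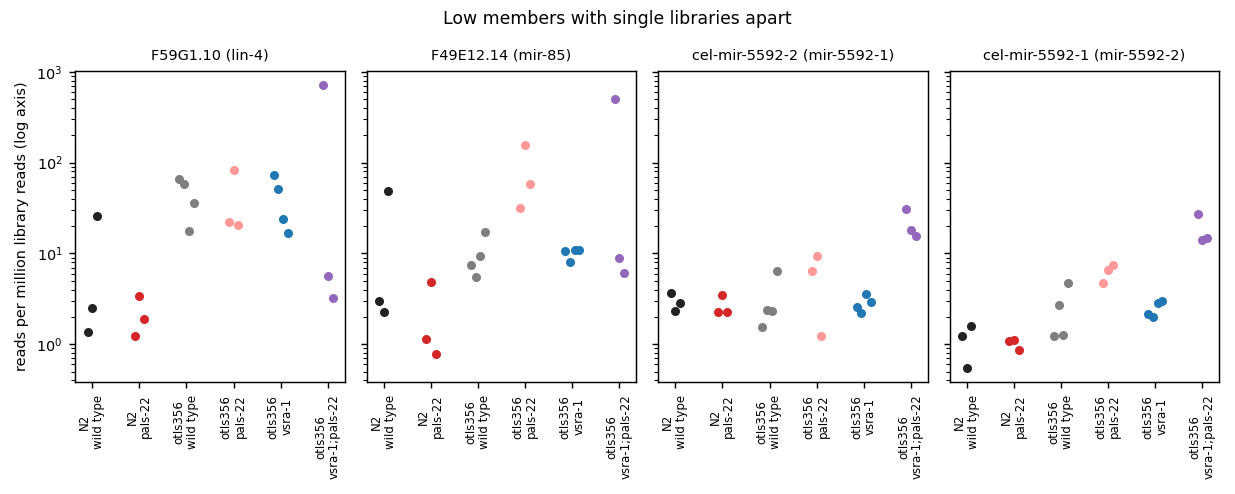
sRNA level in RPM (log axis) on the genes opposite *lin-4*, *mir-85* and the *mir-5592* pair in the 6 groups, with 1 point per library. N2 wild-type replicate 3 and double-mutant replicate 1 stand apart at *lin-4* and *mir-85*, and all 3 double-mutant libraries are the highest of *otIs356* at the *mir-5592* pair.

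The mRNA tables give a second view, through 26 genes of miRNA processing and action (25 tested) and 27 genes reported as miRNA targets. In N2 *pals-22(pig26)* against wild type, 2 pathway genes rose and 11 fell, and 3 targets rose and 14 fell, where 23.3% of all genes rose and 27.8% fell. In *rrf-3(pk1426)* against wild type, 5 pathway genes rose and 12 fell and 4 targets rose and 19 fell, where 31.9% of all genes rose and 35.8% fell. The median log2FC in *pals-22(pig26)* was -0.22 over pathway genes and -0.24 over targets, beside -0.02 over all genes. Without TMM factors, which moved the all-gene medians to 0.16 and 0.43, both lists together had 8 genes higher and 8 lower in *pals-22(pig26)*, against 5 and 25 with them, and 19 and 12 in *rrf-3(pk1426)*, against 9 and 31. The split of all genes called moved likewise, from 4422 higher and 5280 lower to 5290 and 2694, and from 6055 and 6804 to 9071 and 3111. The direction of the lists as a whole therefore depends on the scaling. Without N2 wild-type replicate 2, 4 listed genes rose and 12 fell in *pals-22(pig26)*, and *alg-1*, *pash-1*, *cdh-3*, *cbp-1*, *cah-3* and *sca-1* were no longer called (adjusted p = 0.13 to 0.36), in a fit that takes the lone wild-type library to vary like those of other groups. In *rrf-3(pk1426); pals-22(pig26)* against *pals-22(pig26)*, 3 pathway genes rose and 4 fell and 3 targets rose and 10 fell, where 18.5% of all genes rose and 17.0% fell. These 20 calls became 7 and 8 without replicate 1 or 2 of the double mutant, which leaves 1 library there, and 13 without *pals-22(pig26)* replicate 1. In *otIs356* *pals-22(pig26)* against wild type, 0 pathway genes rose and 2 fell and 1 target rose and 3 fell, where 5.78% of all genes rose and 5.10% fell. These 6 calls became 1 without any of the *pals-22(pig26)* libraries or wild-type replicate 2, 3 without wild-type replicate 1 and 14 without wild-type replicate 4. For *vsra-1(tm1637)* against wild type, edgeR called 0 listed genes, where it called 0.00598% of all genes. At an unadjusted p under 0.05, 1 listed gene was higher and 17 lower, where 2081 of all 16724 genes passed. DESeq2 called 1 listed gene higher and 12 lower, where it called 376 of 10221 genes higher and 535 lower. For the double mutant against *pals-22(pig26)*, edgeR also called 0 listed genes, where it called 0.00598% of all genes. There 0 listed genes passed an unadjusted p under 0.05 and DESeq2 called 0, where 641 and 51 of all genes did.

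Of the processing genes, *drsh-1* had a log2FC of 0.10 ± 0.11, adjusted p = 0.5 in N2 *pals-22(pig26)* and *dcr-1* -0.22 ± 0.15, adjusted p = 0.27, neither past the test, while *pash-1* rose (0.58 ± 0.22, adjusted p = 0.065). The Argonaute *alg-1* fell (-0.32 ± 0.11, adjusted p = 0.051) and lost this call without TMM factors, and *alg-2* and *alg-5* did not pass the test (0.07 ± 0.12, adjusted p = 0.66, and -0.01 ± 0.19, adjusted p = 1). In *rrf-3(pk1426)*, *drsh-1*, *pash-1*, *alg-2* and *alg-5* rose, by 0.71, 0.84, 0.28 and 1.36 (adjusted p = 0.00073, 0.0096, 0.081 and 0.00037), and *alg-1* and *dcr-1* fell (-0.69 ± 0.11, adjusted p = 0.00086, and -0.51 ± 0.15, adjusted p = 0.018), calls which these last genes lost without TMM factors. The call of *alg-2* was lost without wild-type replicate 1 or *rrf-3(pk1426)* replicate 1 or 3 (adjusted p = 0.15 to 0.43), and that of *dcr-1* without wild-type replicate 2 (-0.40, adjusted p = 0.12). Of the targets, *tir-1*, an adaptor of neuronal and immune signalling reported for *mir-71*, was 54.05 and 55.1 CPM in N2 wild type, against 89.4, 96.6 and 113 in *pals-22(pig26)* and rose (0.87 ± 0.15, adjusted p = 0.0022). The kinase gene *nsy-1*, reported for the same miRNA, fell instead (-0.51 ± 0.11, adjusted p = 0.0067). *egl-1*, a cell death activator reported for the *mir-35* family, rose in *pals-22(pig26)* (0.99 ± 0.23, adjusted p = 0.0096) and in *rrf-3(pk1426)* (2.56 ± 0.24, adjusted p = 4.7e-05), as did *tir-1* (1.71 ± 0.15, adjusted p = 3.9e-05), and *zip-10* rose there too (2.18 ± 0.10, adjusted p = 4.8e-06). *cdh-3*, a cadherin gene reported for the *mir-51* family, fell in both (-0.97 ± 0.30, adjusted p = 0.032, and -1.77 ± 0.31, adjusted p = 0.0011), but not without TMM factors in *pals-22(pig26)* (-0.77, adjusted p = 0.11). *cbp-1*, *cah-3* and *sca-1* fell in N2 *pals-22(pig26)* by 0.70, 0.49 and 0.50 (adjusted p = 0.04, 0.026 and 0.057), and without TMM factors *cah-3* alone of these and *nsy-1* kept the call. In *rrf-3(pk1426)* *nsy-1*, *cbp-1*, *sca-1*, *lin-41* and *cah-3* fell by 1.05, 1.07, 1.13, 1.31 and 0.51, and *cah-3* lost the call without TMM factors. In *otIs356* *pals-22(pig26)*, *lin-41*, the *let-7* target of the larval timing pathway, fell (-1.27 ± 0.31, adjusted p = 0.036), as did *cah-3* (-1.28 ± 0.33, adjusted p = 0.045) and *sca-1* (-1.12 ± 0.28, adjusted p = 0.036), and in N2 *lin-41* gave -0.43 ± 0.22, adjusted p = 0.14, called without wild-type replicate 1 (-0.68, adjusted p = 0.065). Each of these 3 calls in *otIs356* was lost without any of the *pals-22(pig26)* libraries (adjusted p = 0.11 to 0.16), and that of *sca-1* also without TMM factors (-0.85, adjusted p = 0.11). These genes were named by the size of their change among those called in 2 or more mRNA comparisons, and whether miRNA levels have a part in any of them was not tested.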

How the data were processed

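sRNAs were sequenced in 20 libraries and poly(A) RNA in 24 libraries of whole L1 larvae. The sRNA values are whole counts per gene, which the authors made with featureCounts from reads trimmed by CutAdapt to 15 to 30 nt and aligned by ShortStack to ce11 (WBcel235), and deposited without normalization. The methods count sense and antisense reads and analyse mostly the antisense ones, and no source used here says which the deposited tables hold. The values were taken as antisense, since genes facing miRNAs hold the reads and the miRNAs hold next to none. For mRNA, the authors deposited estimated counts from kallisto, scaled per gene, which were rounded to whole numbers here. The processing notes also name FastQC and DESeq2.

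Genes facing miRNAs were found with Ensembl release 115, and mature arms were read from the RefSeq annotation and genome of WBcel235. The genes and the lists of pathway genes, targets and markers were chosen with earlier results of these data known. Counts were tested with the quasi-likelihood test of edgeR 4.0.16 (limma 3.58.1, R 4.3.3), with all libraries of a table in 1 fit, a group per genotype, TMM scaling and Benjamini-Hochberg adjustment over all genes tested, two-sided, with calls below an adjusted p of 0.1, as in the study. sRNA genes over 5 RPM in at least 1 library were tested, and mRNA genes that passed filterByExpr (minimum count 10, minimum total 15). For the difference between backgrounds both sRNA tables were joined by gene. RPM use the library total, and CPM are scaled with TMM factors. Errors are SE of a log2 fold change or SD between libraries. Python 3.11.15 and pandas 2.3.3 were used for tables. The fits were tested on simulated data. Alternatives were scaling by library totals alone or by totals over the genes that face no miRNA, DESeq2 1.42.0, no filter on low counts, a replicate block, the compared groups alone, and each library left out in turn. For the interaction and the difference between backgrounds, leaving out libraries was added after seeing the data. Named with values are the genes with a mean of 5 RPM or more in either table and those called in any comparison, with every library for the 10 highest. Of the listed mRNA genes, up to 10 with the largest change among those called in 2 or more comparisons are named, and *alg-1*, *alg-2*, *drsh-1*, *pash-1* and *dcr-1* in any case. The listed gene *ntl-1* was not matched in the annotation.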

Additional observations from a re-analysis of the deposited data

Results flagged for a closer look

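In *otIs356* wild type, 1 library (replicate 1) had 4425.5 RPM on K01F9.6, opposite *mir-80*, far below the 7823 to 8427 RPM of the others. In *vsra-1(tm1637)*, replicate 2 had 8.01 RPM on F49E12.14, opposite *mir-85*, where the others had 10.8 to 11.02. These were 2 of 54 groups of 4 libraries tested for a library apart, and chance gives about 5% of groups. The effect of *vsra-1* loss differed with and without *pals-22* for T09B4.14 (*mir-1*), by a log2 difference of 1.29, and for F44E7.15 (*mir-253*), by 0.80. The effect of *pals-22* loss was lower in N2 than in *otIs356* for ZK384.7 (*mir-262*), with a log2 difference of -1.07, F25D1.9 (*mir-259*), -0.92, and cel-mir-356a (*mir-356b*), -0.97. The same difference was -6.44 for F49E12.14 (*mir-85*), -1.47 for F08F3.13 (*mir-255*) and -1.86 for cel-mir-5592-1. The last passed the filter only through *otIs356* libraries that lack *pals-22*, so its difference is a description only.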

How the results depend on the processing

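The numbers of genes opposite miRNAs called in N2, in the double mutant against *vsra-1(tm1637)* and in the difference between backgrounds stayed within 1.5 times of the values given under each alternative with all libraries. Elsewhere they moved as follows, and the cause was not tested. For *otIs356* *pals-22(pig26)* against wild type, 4 were called when the compared groups alone were fitted, against 7. For *vsra-1(tm1637)* against wild type, 3 were called by DESeq2, 1 with the compared groups alone, 7 without the filter and 4 with library totals alone or with totals over the other genes, against 0. For the double mutant against *pals-22(pig26)*, 5 were called by DESeq2 and with library totals, 7 without the filter and 8 with totals over the other genes, against 3. The interaction was called for 4 by DESeq2 and 1 with library totals, against 2. Of the listed mRNA genes, library totals gave 16 in N2 *pals-22(pig26)* (30 with TMM factors) and 13 in *rrf-3(pk1426); pals-22(pig26)* (20). In *otIs356* *pals-22(pig26)*, DESeq2 gave 12, the compared groups 10 and the replicate block 14 (against 6), and in *vsra-1(tm1637)* DESeq2 gave 13 (against 0).

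Over all genes, library totals called 5606 in N2 sRNA (2835 with TMM factors), 962 for *vsra-1(tm1637)* (399) and 1933 for the difference between backgrounds (1198). Totals over the other genes called 928 for *vsra-1(tm1637)*, 1558 for the double mutant against *pals-22(pig26)* (807) and 459 for the interaction (716). DESeq2 called 733 for *vsra-1(tm1637)* sRNA. In mRNA, *otIs356* *pals-22(pig26)* gave 3584 by DESeq2, 3667 with the compared groups and 5189 with the block (1820), *vsra-1(tm1637)* gave 911 by DESeq2 (1), and the double mutant gave 51 by DESeq2 and 3 with the block (1).

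With library totals the log2FC in N2 turned positive for F44E7.15 (0.25), K01F9.7 (0.11), WBGene00018199 (0.16), ZK930.12 (0.077) and ZK930.13 (0.0077), and so did F16A11.6 in *vsra-1(tm1637)* (0.047, and 0.086 with totals over the other genes) and the difference between backgrounds of T09B4.14 (0.11). Y37A1B.335 in *otIs356* *pals-22(pig26)* turned to -0.12 with totals over the other genes. *alg-5* in N2 *pals-22(pig26)*, near 0, was 0.036 by DESeq2, 0.052 with the compared groups, 0.17 with library totals and 0.056 with the block. None of these was called with TMM factors, and scaling shifts all genes alike by construction.

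Counted only over the 10 genes whose exons hold the whole miRNA, the share of the library was 1.27% in N2 wild type and 1.23% in *pals-22(pig26)*. In *otIs356* it was 1.30% in wild type, 1.06% in *pals-22(pig26)*, 1.57% in *vsra-1(tm1637)* and 1.21% in the double mutant. The genes opposite *mir-1*, *mir-71* and *mir-52* are not among them, so this count leaves out most reads.

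With each library left out in turn, the numbers of genes opposite miRNAs called ranged from 5 to 10 for *otIs356* *pals-22(pig26)*, 0 to 1 for *vsra-1(tm1637)*, 1 to 3 for the double mutant against *pals-22(pig26)*, 6 to 10 against *vsra-1(tm1637)*, 2 to 5 for the interaction and 3 to 7 for the difference between backgrounds. Of the listed mRNA genes, 16 to 33 were called in N2 *pals-22(pig26)*, 7 to 22 in *rrf-3(pk1426); pals-22(pig26)* (7 without replicate 1 of that group) and 1 to 14 in *otIs356* *pals-22(pig26)* (14 without wild-type replicate 4). The log2FC in N2 spanned 0 for K01F9.7 (-0.42 to 0.057), ZK384.7 (-0.027 to 0.077), ZK930.12 (-0.42 to 0.045), F44E7.15 (-0.21 to 0.018), *alg-2* (-0.053 to 0.20) and *alg-5* (-0.087 to 0.050). It did so in *otIs356* *pals-22(pig26)* for Y37A1B.335 (-0.23 to 0.39) and K01F9.7 (-0.31 to 0.076), in the double mutant against *vsra-1(tm1637)* for F49E12.14 (-0.36 to 4.55), and in the difference between backgrounds for T09B4.14 (-0.28 to 0.12). Of 701 such values of named genes, 599 kept their direction and side of the threshold.

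Replicate numbers are shared between groups, but they were not taken to pair the libraries, since no 2 groups with 3 or more shared numbers had every correlation of deviations over 0.1. In N2 sRNA the correlations across genes were 0.16, -0.04 and 0.0009. Some pairs were higher, as in *otIs356* mRNA between wild type and *vsra-1(tm1637)* (0.26, 0.24, -0.18 and 0.49) and between *vsra-1(tm1637)* and the double mutant (-0.01, 0.34 and 0.17). With the replicate block, 20 genes were called in N2 *pals-22(pig26)* (19 without it), 6 in *otIs356* (7), 7 in the double mutant against *vsra-1(tm1637)* (10) and 5 in the difference between backgrounds (6).

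The tables cannot separate miRNA reads from other antisense sRNAs on the same gene, nor the arms of a hairpin. miRNAs with no gene on the opposite strand are not seen. Genes near 5 RPM rest on few reads, and single libraries decided those at *lin-4* and *mir-85*. Scaling with TMM factors assumes that a typical gene does not change.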
